A study of Schizosaccharomyces pombe with 9 samples.

Results

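The genes followed here, 8 in number, belong to trehalose metabolism and the core stress response of fission yeast (Schizosaccharomyces pombe): tps1, tpp1, ntp1, hsp9, rds1, gpd1, sty1 and atf1. They were found by their common names in the authors' tables, which gave 8 rows among the 6986 features used, and all 8 passed the filter on low counts. The name gpd1 also stands there as a synonym of tdh1, a glyceraldehyde-3-phosphate dehydrogenase gene; the row used is SPBC215.05, whose common name is gpd1. Poly(A)+ RNA was sequenced from 3 strains, with 3 libraries each. The parent, rpb1-CTD-T4A29 (T4A below), carries a Thr4 mutation in the carboxy-terminal repeats of Rpb1, the main catalytic subunit of RNA polymerase II, and STF6 and STF9 are suppressor mutants, which the series title ties to the over-repressed phosphate genes of such a strain. Neither the genes mutated in STF6 and STF9 nor the state of that rpb1 allele in them could be read from the labels. All cultures grew vegetatively in log phase at 30 °C in YES, a rich medium, with no stress treatment. Each group has 1 lab strain number in the labels, so a mutant stands for a single isolate. Nothing in the labels says that the 3 libraries of a group came from separate cultures, and p-values then measure only the spread between these libraries.

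Trehalose is a disaccharide that protects proteins and membranes and serves as a carbohydrate store. Yeast makes it from UDP-glucose and glucose 6-phosphate by a synthase and a phosphatase, and splits it with a trehalase. In fission yeast many genes that respond to heat, oxidants, salt and starvation are controlled by a stress-activated MAP kinase cascade, in which the kinase Sty1 acts on the transcription factor Atf1, a partner of Pcr1. Genes induced by most stresses are called the core environmental stress response.

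Total counts ranged from 15374453 to 22909747 per library. The T4A libraries stood apart from each other more than those of the mutants: over all 5951 genes tested the median coefficient of variation was 14.3% in T4A, 5.79% in STF6 and 6.12% in STF9. Levels are CPM, counts scaled to library size with TMM factors, which are not corrected for gene length and are compared only within a gene. The TMM factors of T4A replicates 1, 2 and 3 were 0.978, 0.859 and 1.09. On these scaled levels, 7 of the 8 genes were highest in T4A replicate 2 within their group and 8 were lowest in T4A replicate 3. Over all tested genes 43.9% were highest in T4A replicate 2 and 37.8% lowest in T4A replicate 3. This order rests in part on the scaling, as the raw counts of hsp9, sty1 and atf1 were not highest in T4A replicate 2. The part of this order in the results below was not tested, so the fold changes without each of these libraries are given beside each of the 8 genes. Folds are given on the log2 scale ± standard error (SE). The words rose and fell are kept for genes with an adjusted p under 0.05 by edgeR's quasi-likelihood test.

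Of the 8 genes, 6 fell in both mutants, rds1 rose in both, and gpd1 did not pass the test in either. Thus 7 of 8 were called in STF6, beside 38.4% of all tested genes, and 7 of 8 in STF9, beside 44.2%. The 8 genes were chosen with earlier results of these data known, so setting them beside all genes is not a test of the set. By direction, 19.2% of all genes fell and 19.2% rose in STF6, and 21.3% fell and 23.0% rose in STF9. The comparisons share the 3 T4A libraries. The median log2 fold change of the 8 genes was −0.45 in STF6 and −0.45 in STF9, beside 0.03 and 0.04 over all tested genes. Libraries of mutant and parent did not overlap for 7 of 8 genes in STF6, where 50.3% of all genes did the same, and for 7 of 8 in STF9, where 54.0% did.

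**Figure D1:**
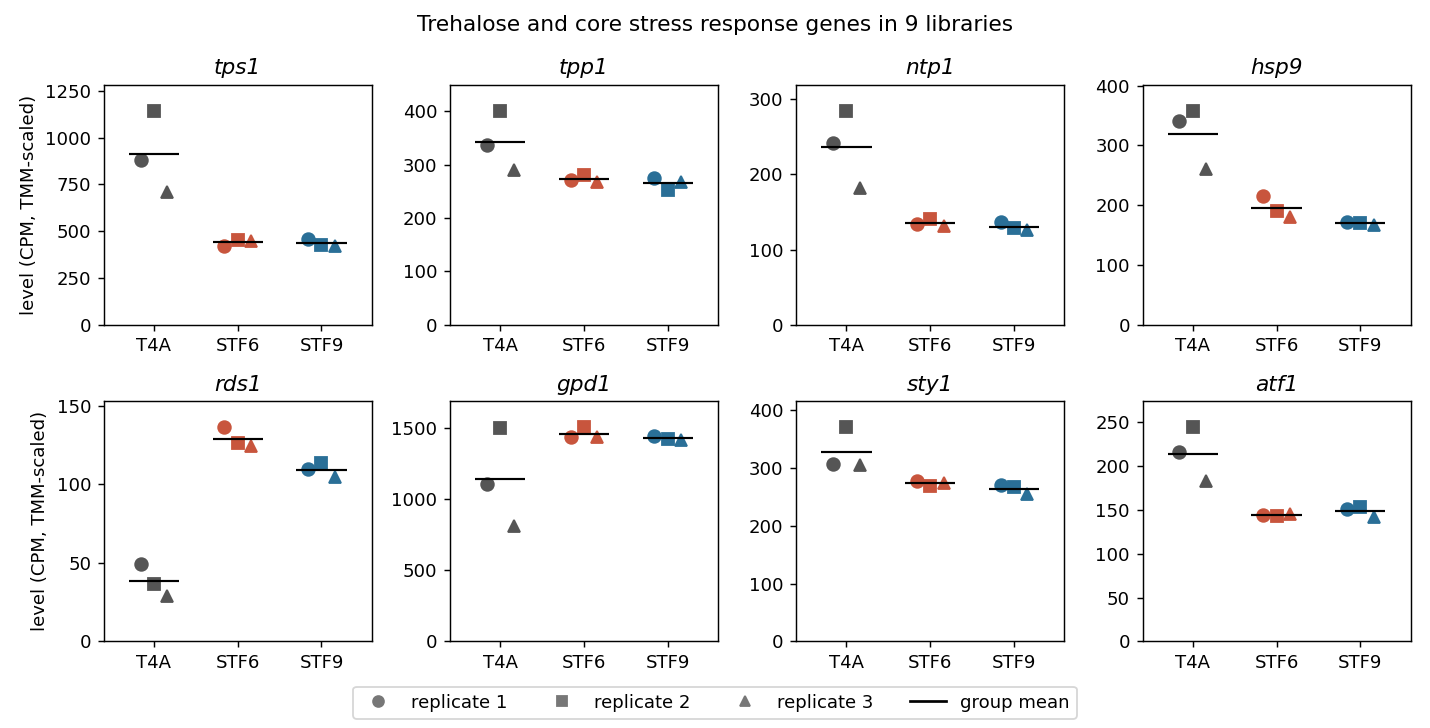
Level in CPM (y axis, from 0) of each of the 8 genes in the 9 libraries, grouped by strain (x axis), with the replicate shown by the symbol and the group mean by a line. All but rds1 and gpd1 lie lower in all mutant libraries than in all T4A libraries, rds1 lies higher in all of them, and for gpd1 T4A replicate 2 lies among the mutants.

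Trehalose synthesis begins with tps1 (SPAC328.03), which encodes trehalose-6-phosphate synthase. Its level was 879, 1144 and 712 CPM in T4A replicates 1, 2 and 3. It was 421, 454 and 447 CPM in STF6, and 460, 427 and 421 CPM in STF9. Every mutant library lay below the lowest T4A library, and the mutants covered the same range. The gene fell by 1.05 ± 0.13 in STF6 (adjusted p = 9.63e-05) and by 1.06 ± 0.13 in STF9 (adjusted p = 9.58e-05), a level 2.07-fold and 2.09-fold lower than in the parent. Of all tested genes 3.08% had a lower log2 fold change than tps1 in STF6 and 2.76% in STF9. Without T4A replicate 2 the log2 fold changes were −0.85 and −0.86, and without T4A replicate 3 they were −1.20 and −1.21, all past the test.

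The next enzyme, trehalose-6-phosphate phosphatase, is encoded by tpp1 (SPAC19G12.15c), and it moved much less. Its level was 337.5, 402 and 290.2 CPM in the T4A libraries, 271, 281 and 268 CPM in STF6, and 275, 253 and 267 CPM in STF9. The mutant libraries lay just below the lowest T4A library. It fell by 0.33 ± 0.10 in STF6 (adjusted p = 0.0228) and by 0.37 ± 0.10 in STF9 (adjusted p = 0.0115). These values depend on T4A replicate 2, without which they were −0.19 (adjusted p = 0.0183) and −0.24 (adjusted p = 0.00441) by the same test. Without T4A replicate 3 they were −0.44 and −0.48. The call in STF6 was lost without STF6 replicate 1 (adjusted p = 0.0522) and in a fit of only the 6 libraries compared (adjusted p = 0.0622). The raw counts of tpp1 in T4A replicates 1, 2 and 3 were close, at 6877, 6994 and 6933. Scaled by library size alone, its log2 fold changes were −0.25 in STF6 and −0.30 in STF9.

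Trehalose is split by the neutral trehalase encoded by ntp1 (SPBC660.07). Its level was 242, 285 and 183 CPM in T4A, 134, 141 and 131 CPM in STF6, and 137, 129 and 126 CPM in STF9. Here too no mutant library reached the lowest T4A library. The fall was 0.80 ± 0.12 on the log2 scale in STF6 (log2 fold change −0.80, adjusted p = 4.02e-04) and 0.86 ± 0.12 in STF9 (log2 fold change −0.86, adjusted p = 2.64e-04). The log2 fold changes were −0.64 and −0.69 without T4A replicate 2, and −0.96 and −1.01 without T4A replicate 3, all past the test. The gene for the enzyme that breaks trehalose down thus lay between those of the synthase and the phosphatase in the size of its fall.

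Ratios of counts within a library do not depend on how libraries are scaled, and gene lengths cancel when a ratio is compared between strains. The tps1:tpp1 ratio was 2.60, 2.85 and 2.45 in the T4A libraries, 1.56, 1.61 and 1.67 in STF6, and 1.67, 1.69 and 1.58 in STF9. Each mutant library lay far below each T4A library. The tps1:ntp1 ratio shifted less, from 3.85 ± 0.20 (SD, n = 3) in T4A to 3.25 ± 0.14 in STF6 and 3.34 ± 0.02 in STF9, again without overlap. Relative to tps1, the phosphatase gene thus stood higher in the mutants than in the parent, and so, by less, did the trehalase gene. These ratios were chosen after values were seen. An exact two-sided permutation test of 3 libraries against 3 cannot go below p = 0.1, which was the value for each of these ratios against T4A (adjusted to 0.14 over the 21 comparisons of 7 ratios).

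The genome encodes other proteins annotated as trehalose-phosphate synthases, and tps3 was the one that fell furthest. Its mean level was 395 ± 89.9 CPM (SD, n = 3) for T4A, 171 ± 4.34 in STF6 and 167 ± 3.11 in STF9. This fall was 1.21 ± 0.12 on the log2 scale in STF6 (log2 fold change −1.21, adjusted p = 1.69e-05) and 1.24 ± 0.12 in STF9 (log2 fold change −1.24, adjusted p = 1.56e-05). The tps1:tps3 ratio was 2.30 ± 0.06 in T4A, 2.58 ± 0.11 in STF6 and 2.61 ± 0.08 in STF9, without overlap between mutant and T4A libraries. SPAC22F8.05, a predicted synthase gene, fell by 0.38 ± 0.13 in STF6 (adjusted p = 0.0324) and by 0.36 ± 0.13 in STF9 (adjusted p = 0.0369). For tps2 the log2 fold change was −0.16 ± 0.07 in STF6, which did not pass (adjusted p = 0.107), and −0.25 ± 0.07 in STF9 (adjusted p = 0.0187).

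A list of 9 genes of trehalose and UDP-glucose supply holds, besides these synthases, the enzymes that lead from glucose to UDP-glucose and a glucose-6-phosphate isomerase. Of these, 3 fell and 0 rose in STF6, and 5 fell and 0 rose in STF9. The counts of this list and those below stand beside the shares over all tested genes. These were 19.2% fallen and 19.2% risen in STF6, and 21.3% fallen and 23.0% risen in STF9. SPBC32F12.10, a predicted phosphoglucomutase gene, fell by 0.30 ± 0.10 in STF6 and by 0.32 ± 0.10 in STF9 (adjusted p = 0.0349 and 0.0232). The median of the list was −0.16 in STF6 and −0.25 in STF9. The counts followed single libraries. Without STF6 replicate 1 or replicate 3 only 1 gene fell in STF6, and without T4A replicate 2 there were 2 that rose. In STF9 2 fell without STF9 replicate 2, 1 fell without STF9 replicate 3, and 1 rose without T4A replicate 2.

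**Figure D2:**
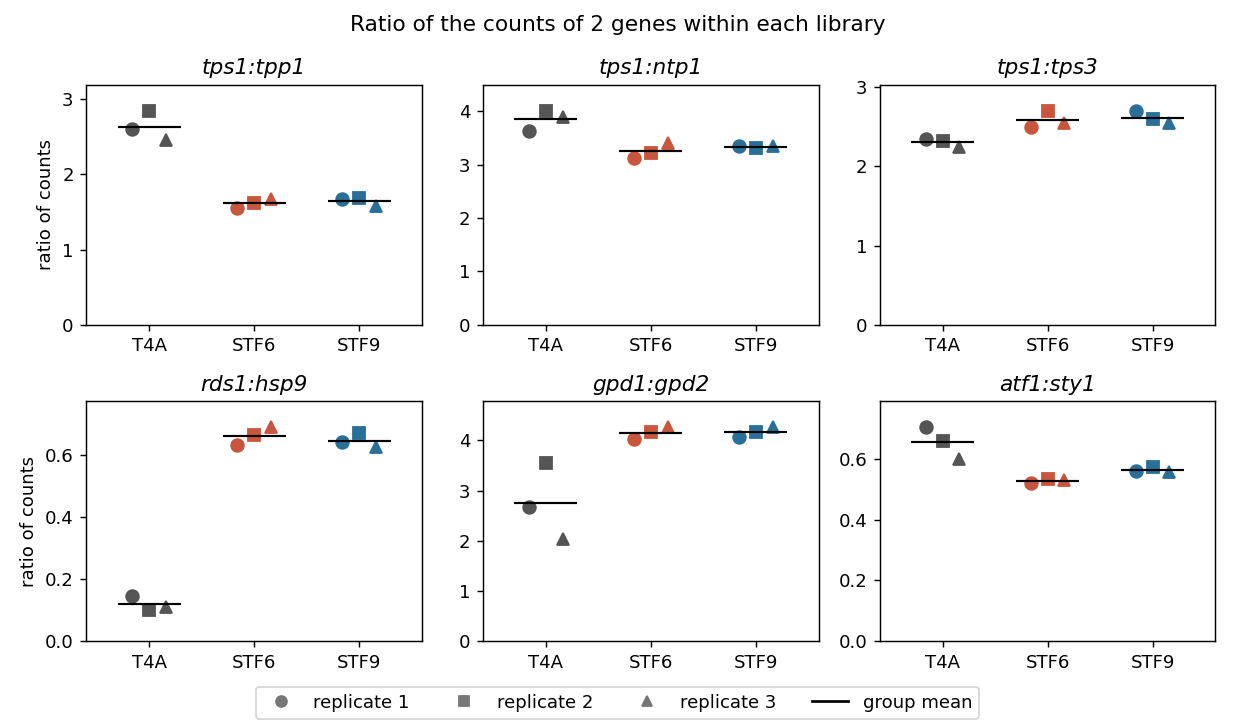
Ratio of the raw counts of 2 genes within each library (y axis, from 0, no unit) by strain (x axis), with the replicate shown by the symbol and the group mean by a line. The tps1:tpp1 ratio of the mutant libraries lies at 1.56 to 1.69 against 2.45 to 2.85 in T4A. The tps1:tps3 ratio differs less but without overlap, at 2.50 to 2.70 in the mutants against 2.24 to 2.35 in T4A. The rds1:hsp9 ratio is several times higher in the mutants.

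The stress-induced genes did not move together. hsp9 (SPAP8A3.04c) encodes a small heat shock protein related to Hsp12 of budding yeast. Its level was 340.4, 358 and 260.4 CPM in T4A, 216, 190.3 and 181 CPM in STF6, and 172, 169.8 and 167 CPM in STF9. The T4A libraries were highest, and each STF9 library lay below each STF6 library. It fell by 0.71 ± 0.11 in STF6 (adjusted p = 3.99e-04) and by 0.91 ± 0.11 in STF9 (adjusted p = 6.43e-05). Without T4A replicate 2 the log2 fold changes were −0.61 and −0.82, and without T4A replicate 3 they were −0.84 and −1.04, all past the test.

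rds1 (SPAC343.12), annotated as a ferritin-related conserved fungal gene and known in fission yeast for its response to nutrients and temperature, went the other way. Its level was 49.3, 36.3 and 28.7 CPM in T4A, 136, 126 and 124 CPM in STF6, and 109.7, 113 and 105 CPM in STF9. All mutant libraries lay above all T4A libraries, with STF6 above STF9. It rose by 1.76 ± 0.14 in STF6 (3.39-fold, adjusted p = 3.02e-06) and by 1.52 ± 0.14 in STF9 (2.87-fold, adjusted p = 1.06e-05). Its log2 fold change ranked 34 from the highest of 5951 genes in STF6 and 47 in STF9. Within T4A rds1 was highest in replicate 1, and without that library the log2 fold change was 1.99 in STF6 and 1.75 in STF9. It was 1.74 and 1.501 without T4A replicate 2, and 1.59 and 1.35 without T4A replicate 3.

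The rds1:hsp9 count ratio puts these opposite moves side by side. It was 0.145, 0.101 and 0.110 in the T4A libraries, 0.631, 0.664 and 0.688 in STF6, and 0.640, 0.668 and 0.626 in STF9. Mutant and parental libraries were far apart, and the mutants overlapped (exact two-sided permutation test, p = 0.1 against T4A for each mutant, the smallest possible).

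gpd1 (SPBC215.05) encodes a glycerol-3-phosphate dehydrogenase, which leads to glycerol, the solute that balances osmotic stress. Its level was 1107, 1497 and 812 CPM in T4A, 1434, 1503 and 1436 CPM in STF6, and 1443, 1420 and 1412 CPM in STF9. The mutant libraries were nearly alike, whereas the highest T4A library held 1.84 times the level of the lowest and lay among or above the mutants. The log2 fold change was 0.36 ± 0.16 in STF6 (adjusted p = 0.0993) and 0.32 ± 0.16 in STF9 (adjusted p = 0.120), so neither passed. The outcome turned on T4A replicate 2, without which the values were 0.61 (adjusted p = 1.17e-05) and 0.58 (adjusted p = 2.32e-05) by edgeR's test. Without T4A replicate 3 they were 0.16 and 0.13. Scaling by library size alone also made both calls, with adjusted p of 0.00785 in STF6 and 0.0127 in STF9.

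Its paralog gpd2 had a level of 412 ± 12.5 CPM (SD, n = 3) in T4A, 352 ± 13.0 in STF6 and 342 ± 11.7 in STF9. It fell by 0.23 ± 0.07 and by 0.27 ± 0.07 on the log2 scale (adjusted p = 0.0229 and 0.00977). The gpd1:gpd2 count ratio was 2.67, 3.54 and 2.04 in T4A, 4.02, 4.159 and 4.26 in STF6, and 4.07, 4.1702 and 4.26 in STF9. All mutant libraries lay above all T4A libraries in this ratio (exact permutation test, two-sided, p = 0.1 for each mutant, the smallest possible). The counting of reads that match both paralogs is not stated in the labels. Of 7 other genes of glycerol metabolism, gpd2 included, 1 rose and 1 fell in STF6, and 0 rose and 2 fell in STF9. In STF6 the one that rose was dak2, a dihydroxyacetone kinase gene (0.47 ± 0.15), and in STF9 gld1, a glycerol dehydrogenase gene, fell by 0.57 ± 0.17. The mitochondrial dehydrogenase gene gut2 was at 0.31 ± 0.13 and 0.26 ± 0.13 and did not pass. Without T4A replicate 2, 4 of the 7 rose in STF6 and 3 rose in STF9. In STF6 0 rose without T4A replicates 1 or 3, STF6 replicates 1 or 2, or STF9 replicates 1 or 2, while 0 fell without T4A replicate 1 and 2 fell without T4A replicate 3. In STF9 1 fell without STF9 replicate 2 and 0 without STF9 replicate 3.

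**Figure D3:**
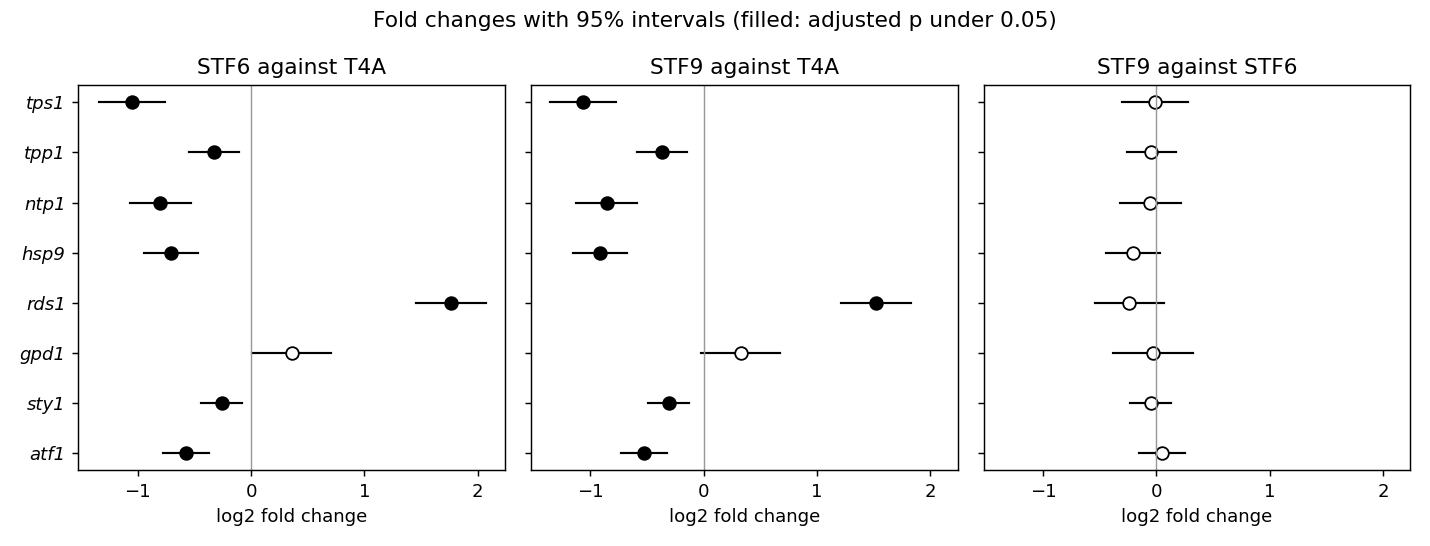
Log2 fold change (x axis) of each of the 8 genes with its 95% interval in the 3 comparisons, filled where the adjusted p was under 0.05. The 2 comparisons with T4A show the same 6 genes below 0 and rds1 and gpd1 above it. The gpd1 interval lies just above 0 in STF6 (0.0059 to 0.71, adjusted p = 0.0993) and includes 0 in STF9, and all intervals between the mutants include 0.

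The regulators fell less than tps1. sty1 (SPAC24B11.06c), the stress-activated MAP kinase gene, had levels of 307, 371 and 305 CPM in T4A, 277, 269.8 and 275 CPM in STF6, and 270.2, 267 and 256 CPM in STF9. On these scaled levels T4A replicates 1 and 3 lay close above the mutants, and replicate 2 stood out. The raw counts in T4A replicates 1, 2 and 3 were 6254, 6460 and 7285, of totals of 20830106, 20274395 and 21910154. Replicate 2 thus stood out only with the TMM factors. The gene sty1 fell by 0.26 ± 0.08 in STF6 (adjusted p = 0.0281) and by 0.31 ± 0.08 in STF9 (adjusted p = 0.0112). Without T4A replicate 2 the log2 fold changes were −0.15 (adjusted p = 0.0295) and −0.20 (adjusted p = 0.00470), and without T4A replicate 3 they were −0.31 and −0.36. The call in STF6 was lost without STF6 replicate 1 or 2 (adjusted p = 0.0501 and 0.0586) and in the fit of only the 6 libraries compared (adjusted p = 0.0843), and that in STF9 without STF9 replicate 3 (adjusted p = 0.0553).

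An antisense RNA is counted at sty1, and none of the other 7 genes has a counted feature named after it. The level of sty1-antisense-1 was 10.2 ± 1.92 CPM (SD, n = 3) in T4A, and it had log2 fold changes of 0.07 ± 0.16 in STF6 and 0.03 ± 0.16 in STF9, neither past the test (adjusted p = 0.742 and 0.879). Whether counting used the strand is not stated, so sense and antisense reads may not be fully separated.

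atf1 (SPBC29B5.01) encodes the bZIP transcription factor of the pathway. Its level was 216, 245 and 183 CPM in T4A, 144, 144 and 145 CPM in STF6, and 152, 153 and 143 CPM in STF9. The STF6 libraries were almost identical, and all 6 mutant libraries lay below the lowest of the parent. It fell by 0.57 ± 0.09 in STF6 (adjusted p = 5.68e-04) and by 0.52 ± 0.09 in STF9 (adjusted p = 0.00100). Its log2 fold changes were −0.46 and −0.41 without T4A replicate 2, and −0.67 and −0.63 without T4A replicate 3, all past the test. The atf1:sty1 count ratio was 0.654 ± 0.0522 (SD, n = 3) in T4A, 0.527 ± 0.00642 in STF6 and 0.563 ± 0.00766 in STF9, with no overlap between any pair of groups. Its partner gene pcr1 was at −0.27 ± 0.12 in STF6 (adjusted p = 0.1) and fell by 0.34 ± 0.12 in STF9 (adjusted p = 0.0419). The atf1:pcr1 ratio was 3.0301 ± 0.338 in T4A, 2.45 ± 0.188 in STF6 and 2.64 ± 0.0419 in STF9. The exact permutation p was 0.1 for each mutant against T4A in both ratios, the smallest possible.

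Of 19 other genes of the kinase cascade and its regulators, 5 rose and 2 fell in STF6, and 4 rose and 6 fell in STF9. Over all tested genes 19.2% rose and 19.2% fell in STF6, and 23.0% rose and 21.3% fell in STF9. The largest rise in the list was in csx1, an RNA-binding protein gene that stabilises atf1 mRNA under oxidative stress, at 0.58 ± 0.11 in STF6 and 0.56 ± 0.11 in STF9 (adjusted p = 0.00136 and 0.00176). Upstream, the histidine kinase gene mak1 rose by 0.43 ± 0.07 and 0.34 ± 0.07, and wis4, a MAP kinase kinase kinase gene, by 0.39 ± 0.08 and 0.45 ± 0.08. In contrast win1, also a MAP kinase kinase kinase gene, fell by 0.30 ± 0.11 and 0.31 ± 0.11 (adjusted p = 0.0409 and 0.0324). ptc3, a phosphatase gene whose product acts on the MAP kinase, rose by 0.38 ± 0.09 and 0.28 ± 0.09. The tyrosine phosphatase gene pyp1 was at −0.22 ± 0.08 in STF6 (adjusted p = 0.0521), and it fell by 0.38 ± 0.08 in STF9 (adjusted p = 0.00366). Another tyrosine phosphatase gene, pyp2, fell by 0.35 ± 0.13 and 0.44 ± 0.13 (adjusted p = 0.0499 and 0.0161). In STF9 alone mak2, mpr1 and pcr1 fell too, by 0.27 ± 0.10, 0.33 ± 0.09 and 0.34 ± 0.12. The median of the list was 0.03 in both comparisons, as for all tested genes in STF6. Counts in this list followed single libraries, and those over all genes moved too. Over all genes 1141 rose in STF6 with all libraries, and 745 to 1410 with 1 library left out. Without T4A replicate 2, 9 rose and 0 fell in STF6 and 3 fell in STF9. Without T4A replicate 3, 6 fell in STF6. In STF6 1 fell without T4A replicate 1 or STF6 replicate 1, and 0 without STF6 replicates 2 or 3 or STF9 replicate 3. In STF9 3 fell without STF9 replicate 2 and 1 without STF9 replicate 3.

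A list of 29 further genes of the core environmental stress response, 28 of them tested, showed both directions as well. In STF6 13 fell and 4 rose, and in STF9 15 fell and 4 rose, with medians of −0.30 and −0.42. Members of the response that fell include rtc3, at −1.22 ± 0.10 in STF6 and −1.25 ± 0.10 in STF9. SPCC663.08c, a predicted short chain dehydrogenase gene, was at −1.61 ± 0.16 and −1.30 ± 0.16, and SPAC27D7.09c, of the But2 family, at −1.36 ± 0.14 and −1.14 ± 0.14. Those that rose include SPBC725.10, a predicted gene of the tspO family of mitochondrial transport proteins, at 0.93 ± 0.10 and 0.82 ± 0.10. SPBC11C11.06c, a Schizosaccharomyces-specific gene, rose by 0.87 ± 0.09 and 0.85 ± 0.09. The adjusted p of these 5 genes ranged from 3.69e-06 (rtc3, STF6) to 8.27e-05 (SPAC27D7.09c, STF9). The mean log2 CPM of the list was 5.57, 5.68 and 5.30 in T4A replicates 1, 2 and 3 and 5.06 to 5.10 in the 6 mutant libraries. The number that rose in STF9 was 2 without STF9 replicate 2 or 3. Leaving out any other single library kept each of the 4 counts within 1.5 times its value.

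The cAMP-PKA pathway, which signals glucose and restrains stress and starvation genes, was examined as a further list of 12 genes. Of these, 6 fell and 2 rose in each mutant, with medians of −0.11 and −0.18. pka1, the catalytic subunit gene, fell by 0.51 ± 0.09 in STF6 and by 0.47 ± 0.09 in STF9 (adjusted p = 7.56e-04 and 0.00124). rst2, a transcription factor gene of this list, had 172 ± 14.4 CPM (SD, n = 3) for T4A, 123 ± 0.483 in STF6 and 117 ± 0.310 in STF9 (−0.48 ± 0.07 and −0.55 ± 0.07). gpa2, a G protein alpha subunit gene, fell by 0.51 ± 0.13 and 0.58 ± 0.13, and git1 fell by 0.36 ± 0.10 and 0.47 ± 0.10. The adenylate cyclase gene cyr1 rose by 0.37 ± 0.08 and 0.30 ± 0.08, and git11, a G protein gamma subunit gene at 6.50 CPM in T4A, by 0.82 ± 0.20 and 0.75 ± 0.20.

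Mating and meiosis genes served as markers of cells outside vegetative growth. Their summed level over 9 genes was 67.4 to 82.5 CPM in T4A, 90.8 to 118 CPM in STF6 and 83.0 to 91.8 CPM in STF9. Much of this sum was ste11, with mean levels of 40.1 CPM in T4A, 59.4 in STF6 and 51.4 in STF9. The mean log2 CPM of the list was 1.69 to 1.84 in T4A, 1.49 to 1.80 in STF6 and 1.53 to 1.71 in STF9. Median log2 fold changes of the list were −0.20 in STF6, the value of spo6 (± 0.46), and −0.25 in STF9, the value of map2 (± 0.17). Neither of these genes passed the test. The summed level was higher in each mutant library than in each T4A library, so sum and median differed in direction. In STF6 1 rose (ste11, 0.57 ± 0.14) and 2 fell (mei4, −0.83 ± 0.17, and mfm3, −0.89 ± 0.31), and in STF9 0 rose and the same 2 fell, at −0.82 ± 0.17 and −0.80 ± 0.31. Values of mei2 were 0.64 ± 0.24 and 0.39 ± 0.25 and those of mfm1 −0.74 ± 0.37 and −0.77 ± 0.38, none past the test. Leaving out single libraries moved the number that rose between 0 and 2 in both mutants and the number that fell between 1 and 2. The pheromone genes mfm1, mfm2 and mfm3 and the gene spo6 were near the floor, with mean levels of 0.411 to 1.21 CPM in the 3 groups. The part of these cells in the values of the 8 genes was not tested.

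**Figure D4:**
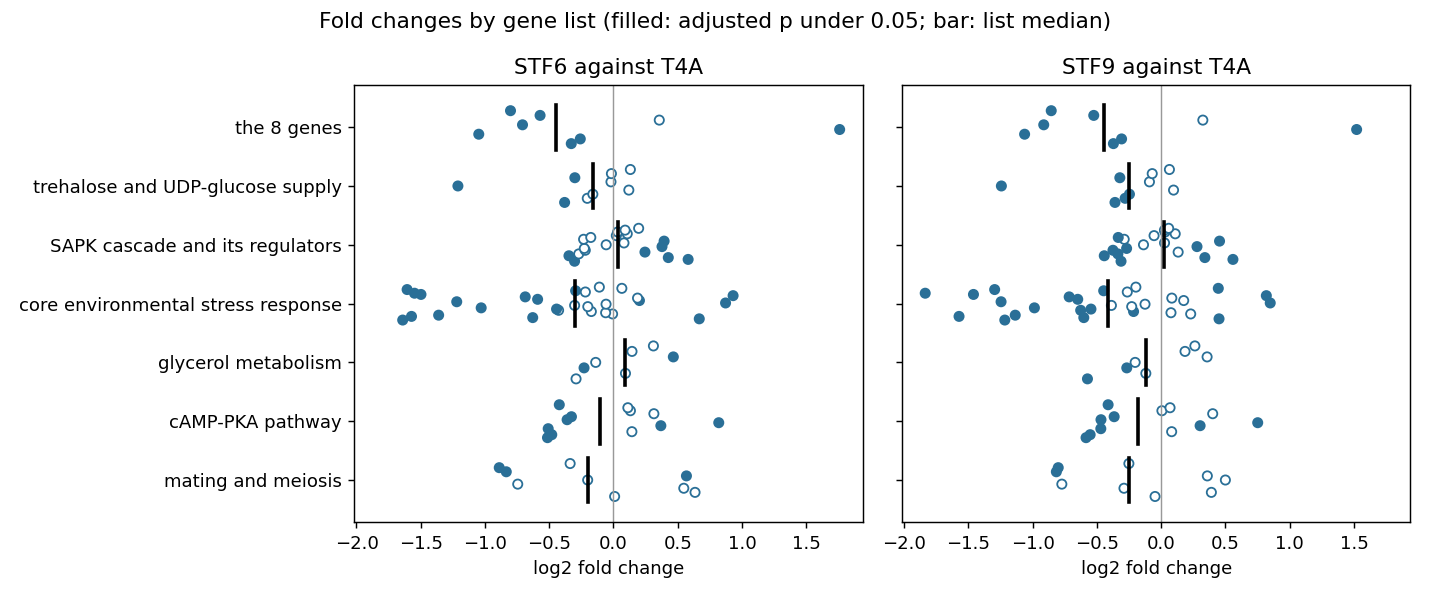
Log2 fold change against T4A (x axis) of every tested gene in the 8-gene set and in each gene list (rows) for STF6 and STF9, filled where the adjusted p was under 0.05, with the list median as a bar. Core stress response genes run from −1.64 to 0.93 in STF6 and from −1.84 to 0.85 in STF9, and rds1 lies beyond all of them.

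STF9 and STF6 were compared directly to ask whether the mutants differ in these genes. None of the 8 passed, nor did any of the 5951 genes by edgeR's test (background 0%), with 2.99% of genes at an unadjusted p under 0.05 and 1 gene called by DESeq2. The largest values were −0.24 ± 0.14 for rds1 (95% interval −0.54 to 0.06) and −0.21 ± 0.11 for hsp9 (95% interval −0.44 to 0.03), each with adjusted p = 0.980. These were also the 2 of 8 genes whose libraries did not overlap between the mutants, which 17.0% of all genes did. For tps1 the difference was −0.01 ± 0.13 (95% interval −0.31 to 0.28), and for gpd1 −0.03 ± 0.16 (−0.38 to 0.32). The other 4 genes lay between −0.05 and 0.05, with 95% intervals between −0.32 and 0.25. The fit uses 1 estimate of spread for all 3 groups, into which the wider T4A libraries enter. When limma-voom weighted each library by its own spread, an alternative chosen after seeing the data, hsp9 and rds1 passed (adjusted p = 0.0171 and 0.0352), as did 417 higher and 233 lower genes over the whole table. Under the other 16 settings neither passed. In edgeR's fit of only the 6 mutant libraries rds1 was at −0.24 ± 0.05 (adjusted p = 0.0706) and hsp9 at −0.21 ± 0.06 (adjusted p = 0.135).

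Likeness to other genes was measured as the root mean square difference between log2 CPM profiles over the 9 libraries, each centred on its own mean. Profiles were not scaled to equal spread, so the measure takes in the size of a change as well as its shape. It is descriptive only. The 8 genes themselves were left out of this search and are compared with each other at its end. Nearest to tps1 was plr1, a pyridoxal reductase gene of the core stress list (0.05), followed by zta1, an NADPH quinone oxidoreductase gene (0.06). ntp1 was nearest to mdj1 and mcp60, genes of mitochondrial chaperones (0.06 for each), and hsp9, outside the 8 genes, to mdj1 and rrn3, an RNA polymerase I factor gene (0.10 and 0.11). atf1 was nearest to hem2, of haem synthesis, and pup3, of the proteasome (0.04 and 0.05). tpp1 was nearest to arg6 and bub1 (0.02 and 0.03), and sty1 to sac11 and dld2 (0.02 for each). gpd1 lay nearest to the aldolase gene fba1 and the ribosomal protein gene rps1401 (0.05 and 0.06). rds1 had the least close neighbours, SPBC8E4.04, a predicted alditol oxidoreductase gene, at 0.20, and cct5-antisense-1 at 0.24. Among the 8 genes the nearest pairs were tpp1 and sty1 (0.07), then hsp9 and ntp1 (0.10) and tpp1 and atf1 (0.11), and the farthest was tps1 and rds1 (1.29).

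**Figure D5:**
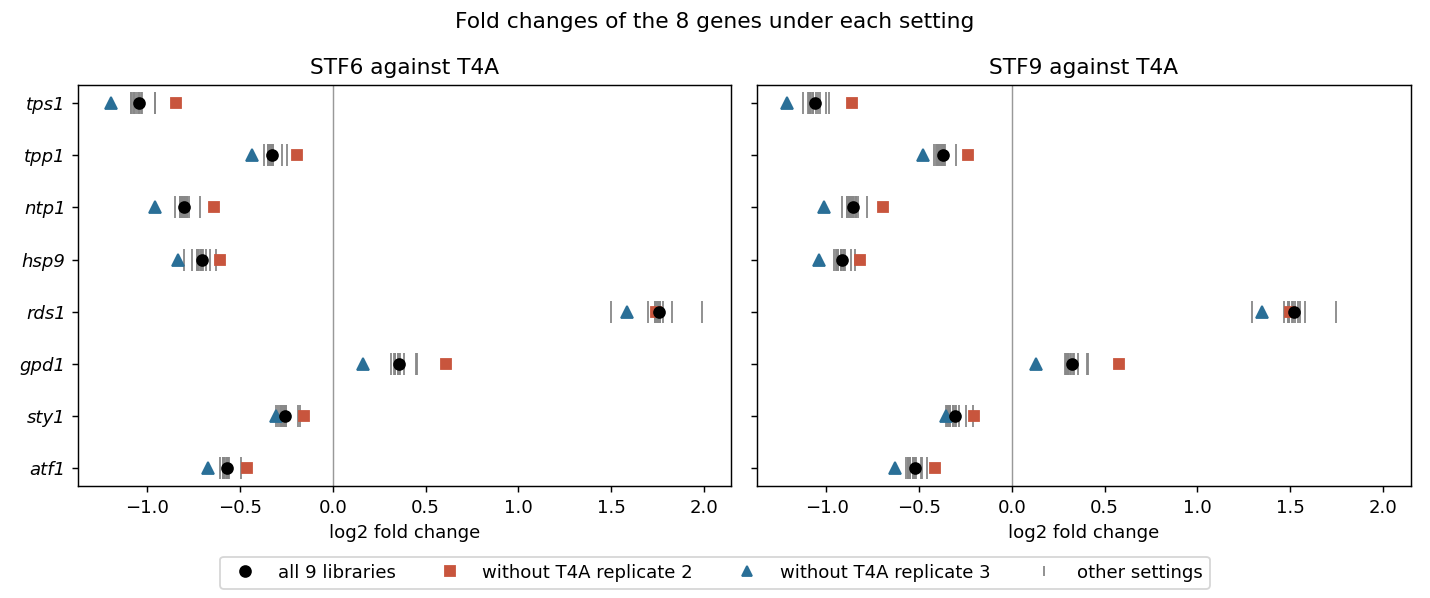
Log2 fold change against T4A (x axis) of each of the 8 genes with all 9 libraries, without T4A replicate 2, without T4A replicate 3 and under the other settings, for STF6 and STF9. No gene crosses 0, and for gpd1 the values run from 0.16 to 0.61 in STF6 and from 0.13 to 0.58 in STF9.

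For 7 of these 8 genes the authors' deposited tables gave an adjusted p under 0.05 in each mutant, beside 43.3% of the 6689 features with an adjusted p in the STF6 table and 51.3% of the 6300 in the STF9 table. For gpd1 the authors' deposited tables gave 0.0797 for STF6 and 0.116 for STF9. The log2 fold changes in the authors' deposited tables were −1.09 for tps1 and 1.72 for rds1 in STF6, and −1.11 and 1.48 in STF9.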

How the data were processed

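The authors deposited raw counts per gene, whole numbers with no normalization, for 9 libraries, and per the file headers a table for each mutant against T4A with a log2 fold change, its standard error, a test score, p-values and normalized counts averaged per group, treated here as a signal. Per the submitters' processing notes, the authors worked on genome build ASM294v2 and used DESeq2, HTSeq 0.10.0, HISAT2 2.1.0 and SAMtools. Per the labels' protocols, libraries were stranded poly(A)+. The annotation, the strand setting and the handling of multi-mapped reads are not stated in the labels. The overall mean in the deposited tables was above or below all 3 group means for 2547 features, so other libraries may have entered the authors' scaling, and their tables are used here for gene names and annotation and, in 1 closing paragraph, for their own fold changes and calls.

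Of 6987 lines, 1 all-zero duplicate ID was dropped. Tests used R 4.3.3 and edgeR 4.0.16: filterByExpr (5951 genes kept), TMM, glmQLFit with group alone, on all 9 libraries, glmQLFTest, and Benjamini-Hochberg adjustment over all genes tested. Log2 CPM used a prior count of 2. SEs and 95% intervals come from the fitted model's information matrix. The alternatives tried were DESeq2 1.42.0, scaling by median ratios or by library size alone, testing without a filter or with a minimum of 1 CPM in every library, only the 6 libraries compared, a replicate block, limma-voom (limma 3.58.1) with sample quality weights, and each library left out. The scripts were tested on simulated counts. Figures used matplotlib 3.10.9 in Python 3.11.15.

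The 8 genes, the lists and the named genes were chosen with earlier results of these data known. Named were the 8 genes, features named after them, up to 4 genes with the smallest p per list and comparison, and the 2 nearest profiles of each gene with mean log2 CPM of at least 1. Also named were the genes of the kinase cascade list that fell, and mating genes at low levels or at their list's median. In the lists, fps1 was dropped because the tables annotate it as another enzyme's gene, and 1 ID that they give as a synonym of another was merged. The 7 count ratios, and rst2, pcr1 or tps3 as partners in them, were chosen after values were seen.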

Additional observations from a re-analysis of the deposited data

How the results depend on the processing

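The log2 fold changes of the 8 genes were recomputed under 17 alternatives in each comparison, 9 of which leave out 1 library. Against T4A none changed sign and 260 values kept their side of the threshold. Of the rest, 6 were gpd1, which passed without T4A replicate 2, with library size alone and with limma-voom weights (adjusted p = 1.20e-06 in STF6 and 1.37e-06 in STF9), and 6 were the lost tpp1 and sty1 calls given above. The number of the 8 genes called was 5 to 8 in STF6 and 6 to 8 in STF9 with 1 library left out, against 7 in each with all libraries. For STF9 against STF6 it was 0 throughout, except for 2 with limma-voom weights, which gave T4A replicate 2 a weight of 0.0932 and STF9 replicate 2 a weight of 5.17. The difference for tps1 changed sign without STF6 replicate 2 (0.0027), STF6 replicate 3 (0.0043) or STF9 replicate 3 (0.0098), within a range of −0.0554 to 0.0098 over all left-out libraries. Over all genes, the number higher in STF6 was 1141 and ranged from 745 to 1410 with 1 library left out, reaching 1731 with limma-voom weights. In STF9 1368 were higher (807 to 1645) and 1265 lower (814 to 1528). Between the mutants 7 higher and 10 lower genes were called in a fit of only their 6 libraries, 417 and 233 with limma-voom weights, and 6 and 1 lower genes without T4A replicates 2 and 3. Same-numbered libraries did not deviate together in all pairs (correlations of −0.13, 0.08 and 0.38 for STF6 with T4A), and the replicate block called 7, 7 and 0 of the 8 genes in the 3 comparisons. List counts under the 8 settings other than left-out libraries also moved by more than 1.5 times, in short and longer lists. A fit of only the 6 libraries compared gave 1 lower gene of trehalose and UDP-glucose supply in STF6, against 3. In the kinase cascade list that fit gave 0 lower in STF6, against 2, and 3 lower in STF9, against 6. With limma-voom weights 9 of this list were higher in STF6, against 5, and 4 lower. In the core stress response list 2 were higher in STF9 in the fit of 6 libraries, against 4. The cause was not tested. Median log2 fold changes of all genes shifted by less than 0.1 between scalings.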
